A study of Mus musculus with 43 samples.

Results

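The cytosolic ribosomal protein genes of NAcLat→VTA cells are described here, that is, the genes for the proteins of the small and large subunits of the cytosolic ribosome in neurons of the lateral nucleus accumbens that project to the ventral tegmental area. Members were chosen by name alone: Rps or Rpl followed by a number and an optional letter and digit, plus *Rpsa*, *Rplp0*, *Rplp1* and *Rplp2*, without rows named as pseudogenes (-ps). The rule gave 89 of the 35825 genes measured, 36 of the small subunit and 53 of the large subunit. The genome annotation lists 83 of them as protein coding and 6 as processed pseudogenes, namely *Rpl32l*, *Rpl6l*, *Rps12l1*, *Rps3a2*, *Rps3a3* and *Rps4l*, so the name rule took in some rows that are not known to encode a ribosomal protein.

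The data are 43 single-cell libraries from C57BL/6J mice of both sexes, 6 to 8 weeks old when the work began. Of these, 23 came from mice on standard chow with 4% fat (REG), and 20 from mice that could also eat a chow with 60% fat, over no less than 4 weeks (HFD). All mice, REG and HFD alike, carried fluorescent retrobeads injected into the ventral tegmental area, and the cytosol of a bead-labelled cell was drawn into a patch pipette after recording. The cells came from 10 REG mice and 11 HFD mice, but nothing ties a cell to its mouse, which leaves 1 sample per diet, and the diets were not tested over cells. The labels place 13 REG cells and 5 HFD cells in batch 1, and 10 REG cells and 15 HFD cells in batch 2. Because the pipette takes cytosol in unknown amounts, a value is a share of the RNA recovered from a cell, not an amount per cell.

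Ribosomal proteins are made in equal numbers for each ribosome, assembled with ribosomal RNA in the nucleolus and exported as subunits that join on an mRNA. Their mRNAs are short, abundant in nearly every cell and, as a class, begin with a C followed by a run of pyrimidines (the 5′ terminal oligopyrimidine or TOP motif), through which the kinase mTOR controls their translation with nutrients. In neurons such mRNAs are also carried into dendrites and axons.

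To show what the motif looks like, 30 bases around the annotated start are printed for 5 members that carry it there and for *Rpl41*, the member with the highest level, which does not at its annotated start. Each runs 5′ to 3′ on the transcribed strand from 10 bases before the start, and capitals mark the start base C and the unbroken run of C and T after it, read from RefSeq sequences of GRCm38.p6. *Rps6*, the small subunit protein phosphorylated by S6 kinases, lies at chr4:86857348-86857377 on the minus strand, *Rpl15* at chr14:18270967-18270996 on the minus strand, *Rpl35* at chr2:39005112-39005141 on the minus strand, *Rps18* at chr17:33955646-33955675 on the minus strand, *Rps27* at chr3:90213629-90213658 on the minus strand, and *Rpl41* at chr10:128549149-128549178 on the minus strand.
Rps6: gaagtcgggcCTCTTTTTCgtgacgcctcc
Rpl15: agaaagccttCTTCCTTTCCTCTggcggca
Rpl35: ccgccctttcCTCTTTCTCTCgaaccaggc
Rps18: cacttccgctCTCTCTTCCacaggaggcct
Rps27: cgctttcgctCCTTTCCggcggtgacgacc
Rpl41: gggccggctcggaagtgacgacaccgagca

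A promoter sequence was found for 64 of the 89 members. A start base C followed by at least 4 letters that are each C or T, searched on the transcribed strand only, stood at the annotated start of 14 of these 64, or 21.9% (95% exact interval 12.5 to 34.0%), against 2.68% of the 16891 genes of the table with a promoter sequence and 0 of 68 mitochondrial ribosomal protein genes. The longest run was that of *Rpl15*, with 13 letters. Where the run could begin anywhere within 10 bases of the annotated start, the shares were 62.5% of members, 34.9% of all genes and 45.6% of mitochondrial ribosomal protein genes, so the count depends closely on where the start is annotated. A match describes letters only. Among members above the filter given below, the 13 with the motif had a median log2 ratio of HFD to REG of 0.17 and the 47 without it one of 0.19. In batch 1 the medians were −0.33 and 0.05, and in batch 2 0.36 and 0.37, and the median coding lengths of these sets were 390 and 471 bases.

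The libraries varied widely in depth. Total estimated counts ran from 176961 to 16919555 in REG cells (median 1427698) and from 178341 to 8242048 in HFD cells (median 1416982). Markers of the labelled cell type were the most widely detected. The 6 markers of medium spiny neurons, the projection neurons of the striatum, exceeded 15 CPM (counts per 1000000 counts of the cell) in 94.6% of gene and cell pairs, and the 3 markers of GABAergic neurons in 83.7%, against 27.2% for microglial, 10.2% for astrocyte, 8.84% for oligodendrocyte, 6.20% for glutamatergic and 1.74% for endothelial markers. The summed level of 7 microglial markers ranged from 0.341 to 1348 CPM in REG cells and from 2.97 to 1685 CPM in HFD cells, with none of the 7 at 0 in every cell, and 4 REG cells and 5 HFD cells had at least 4 of them above 15 CPM. *Lars2*, a single gene, took between 2.33% and 79.8% of the counts of a cell.

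Ribosomal protein mRNAs together made up a small and variable share of the counts of a cell. The summed share had a median of 1.20% over the 43 cells and ranged from 0.0938% to 3.08%. In REG cells the lowest, median and highest shares were 0.424%, 1.20% and 1.97%, and in HFD cells they were 0.0938%, 1.16% and 3.08%. The range of REG cells thus lay inside that of HFD cells, and the medians were close. Because these mRNAs are short, they made up more of the transcripts than of the counts, with a median of 4.21% of TPM (transcripts per 1000000, in which each count is divided by transcript length). The cell with the lowest share, HFD 8 of batch 2, was the cell in which *Lars2* took 79.8% of the counts, and in it only 1 of the 82 members above the filter described below exceeded its own median over cells. Computed on totals without *Lars2* and *Gm19220*, shares ran from 0.656% to 6.21%. Summed counts of the 53 large subunit genes exceeded those of the 36 small subunit genes in most cells. The ratio of small to large had a median of 0.651, between 0.300 and 1.13. These sums cover unequal numbers of genes and are not per length, so they do not show a difference between the subunits gene by gene.

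**Figure D1:**
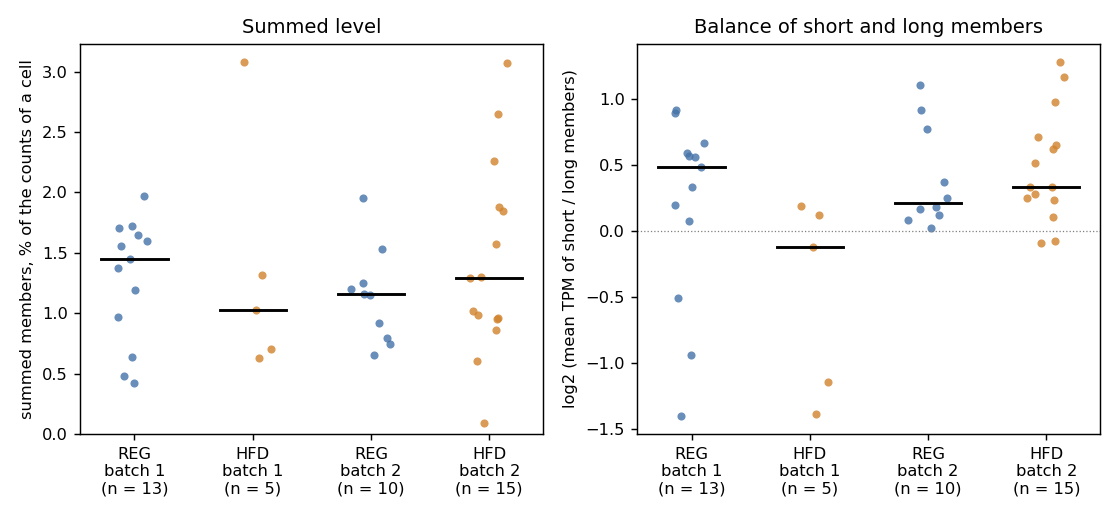
Left, summed counts of the 89 ribosomal protein genes as a percentage of all counts of a cell (linear axis from 0), by diet and batch; right, log2 ratio of the mean TPM of the 40 members with short coding sequences to that of the 40 with long ones. Each point is 1 cell and each bar the median. HFD 4 stands alone at the top of HFD batch 1 with 3.08%, and the cells with a balance under −0.5 are all of batch 1.

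Detection was nearly complete, which is uncommon for single genes in these cells. Of the 89 members, 58 had a count above 0 in all 43 cells, another 20 in at least 38 cells, and each cell held counts for between 76 and 84 members. Genes were kept for the comparisons if they exceeded 15 CPM in at least 5 cells and had a mean above 4 CPM, which 82 members and 10802 genes in all passed. Of the members that passed, 70.7% were detected in every cell, against 9.61% of the other genes. Among genes of like level the gap was smaller: with a median TPM inside the interquartile range of the members, 231 to 573, the shares were 77.5% of 40 members and 66.3% of 208 other genes.

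The 7 members below the filter all had a median TPM of 0. They were *Rpl3l*, *Rpl10l* and *Rpl39l*, paralogues known from muscle and testis, and the annotated pseudogenes *Rpl32l*, *Rpl6l*, *Rps3a2* and *Rps3a3*. *Rpl39l* was not detected at this depth, and 0 of 43 cells allows up to 8.22% of cells with a count (exact 95% interval that treats cells as independent). *Rpl10l* was detected in 1 cell, *Rpl3l*, *Rpl32l*, *Rpl6l* and *Rps3a3* in 3 cells each and *Rps3a2* in 10 cells.

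Levels differed widely between members, although nearly all of the proteins are held in 1 copy per ribosome. Compared per length, *Rpl41*, which encodes the shortest ribosomal protein, was highest with a median of 1837 TPM (interquartile range 1282 to 2567 over 43 cells). Also among the highest were *Rplp1* with 1230, *Rps29* with 1094, *Rps14* with 1094, *Rps27* with 974, *Rps18* with 848 and *Rps15* with 846 TPM. Of the 89 members, 77 had a median above 100 TPM and 29 above 500 TPM. The spread over cells was wide beside these steps: all 81 pairs of neighbours in the order had overlapping interquartile ranges, and the first gene whose range lay wholly below that of *Rpl41* was *Rps18*, in place 7. The order itself was similar between diets, with a Spearman correlation of median TPM over the 82 members of 0.92 between REG and HFD cells and of 0.83 between batches (across genes, which are not independent).

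**Figure D2:**
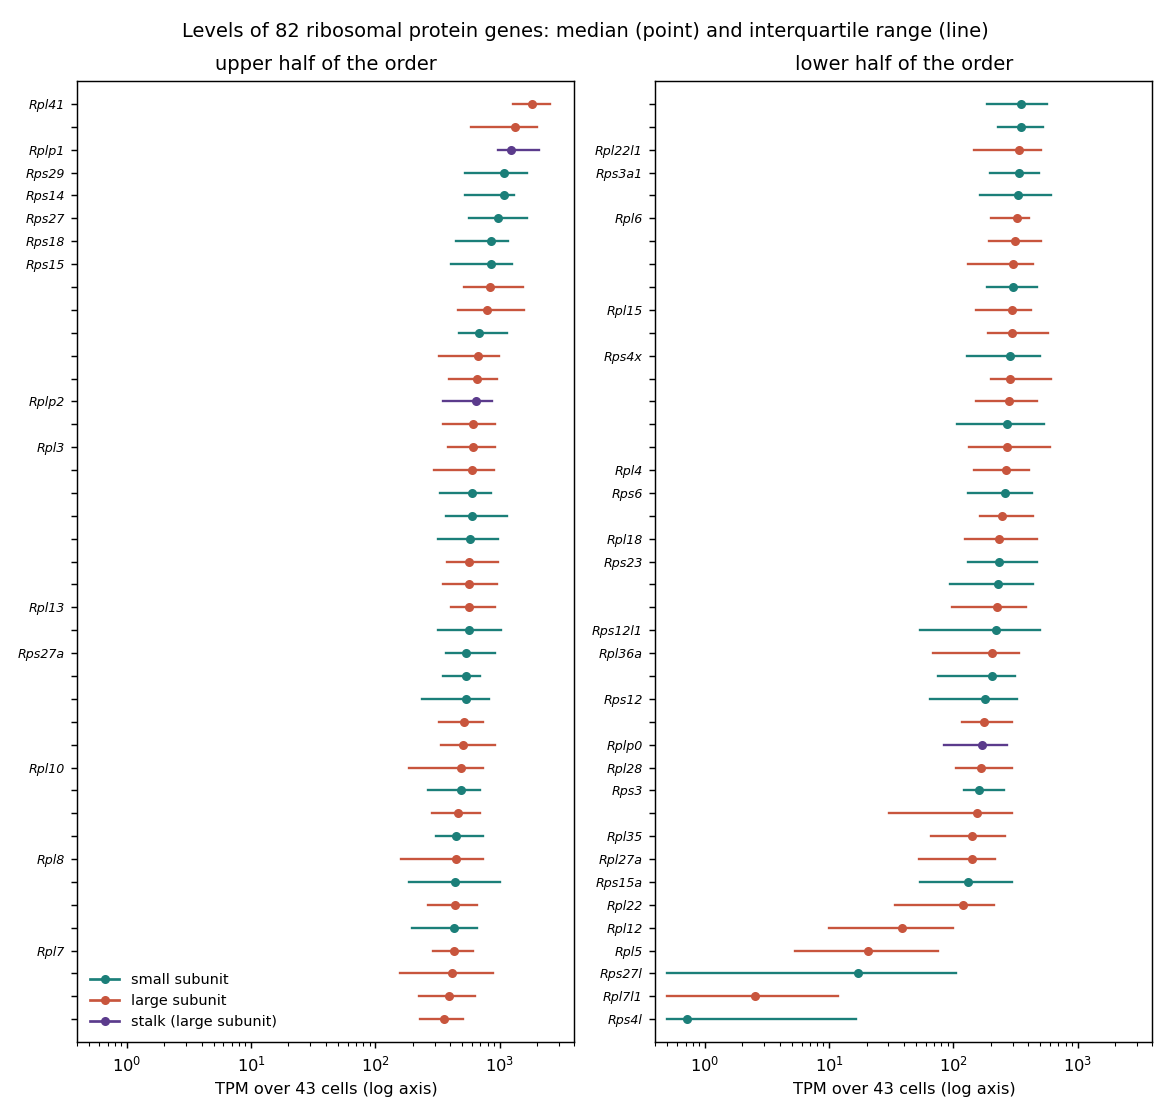
Median TPM (point) and interquartile range (line) over 43 cells for the 82 members above the filter, on a log axis, in descending order and coloured by subunit, with names for members given in the text. Lines that start at 0 are drawn from 0.5 TPM. *Rpl41* leads with 1837 TPM, and *Rpl12*, *Rpl5*, *Rps27l*, *Rpl7l1* and *Rps4l* lie apart at the low end.

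The stalk of the large subunit, a flexible arm that recruits the translation factors, holds *Rplp0* at its base and *Rplp1* and *Rplp2* as its dimers. *Rplp1* and *Rplp2* had medians of 1230 and 647 TPM, while *Rplp0* had a median of 169 TPM. *Rps6*, the substrate of S6 kinases, had a median of 259 TPM, and *Rps27a*, whose product is cleaved into ubiquitin and a small subunit protein, 542 TPM. Ribosomal proteins outside the name rule were in the same range: *Fau* (a ubiquitin-like protein fused to a small subunit protein) had 604 and *Rack1* (a signalling scaffold on the small subunit) 196 TPM.

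Paralogues were compared as pairs within each cell. *Rpl22l1* exceeded its partner in most cells, with medians of 337 TPM for *Rpl22l1* and 119 TPM for *Rpl22*, an RNA-binding large subunit protein, and it was the higher of the pair in 33 of 43 cells, 17 REG and 16 HFD. *Rpl36al* and *Rpl36a* had medians of 211 and 204 TPM, with the paralogue higher in 23 cells. In REG cells the medians were 211 and 155 TPM, with the paralogue higher in 15 of 23 cells, and in HFD cells 217 and 294 TPM, with the paralogue higher in 8 of 20. The batches differed here: the log2 ratio of HFD to REG of *Rpl36al* was −2.01 in batch 1 and 0.80 in batch 2. That of *Rpl36a* was 0.20 and 0.46. *Rps27l*, known as a p53 target, had a median of 17.1 TPM and was above *Rps27* in 0 cells. *Rpl7l1* had a median of 2.52 TPM beside 433 TPM for *Rpl7*, and *Rps4l* one of 0.714 TPM beside 287 TPM for *Rps4x*. The levels of *Rpl22l1* and *Rpl22* were close to unrelated over the 43 cells, with a Spearman correlation of 0.0096.

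Several members share sequence with near-identical rows that held many of the counts. Processed copies of ribosomal protein genes are common in the mouse genome, and the pseudo-aligner divides reads that fit several transcripts. Of the 31-base words of a member's transcripts, a median of 46.1% also occurred in another gene, and 40 members shared over 50%. Rows named or annotated as pseudogenes that held at least 25% of a member's words numbered 250 and carried 5.41% of the counts of members and copies together, unevenly spread. For *Rpl5*, which binds 5S ribosomal RNA, the row of *Gm15500*, annotated as a transcribed processed pseudogene, held 79.9% of the counts of the pair and was the higher of the pair in 34 of 43 cells. For *Rpl12*, a protein at the base of the stalk, *Gm10275* held 74.2% and was higher in 33 cells. Copies held 44.6% for *Rpl10*, 41.0% for *Rps12*, 37.5% for *Rps23*, 29.4% for *Rpl27a* and 28.7% for *Rpl28*. Every word of *Rps12l1* occurred elsewhere, and its median of 219 TPM was close to the 178 TPM of *Rps12*. For *Rpl36a*, 88.3% of the words also occurred in other genes. Values of these members are therefore uncertain as levels of single genes.

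The members moved together over cells, and the shorter ones most of all. For each member, the Spearman correlation over the 43 cells with the summed CPM of the other members had a median of 0.57 over the 82 members, between −0.17 for *Rpl4* and 0.87 for *Rpl41*. For the 10720 other genes above the filter, the correlation with the summed members had a median of −0.08. All these points share the library, its depth and the division by its total, so the values are descriptions and carry no p. Members with a coding sequence of at most 462 bases, the median, had a median correlation of 0.68 (40 genes), and longer ones 0.39 (40 genes). *Rpl3*, near the catalytic centre of the large subunit, was at −0.03, and *Rplp0* at 0.14.

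The 10 genes outside the members that followed their sum most closely were short mRNAs for the most part. Among them were the ribosomal protein gene *Fau* (0.76), the copies *Rpl10-ps3* (0.72) and *Gm11808* (0.72), and 6 genes of the respiratory chain and ATP synthase: *Atp5j2* (0.80), *Cox17* (0.80), *Cox6c* (0.74), *Uqcrq* (0.73), *Cox7a2* (0.72) and *Atp5k* (0.72). The coding sequences of these 6 run from 189 to 264 bases. Other genes at the level of the members behaved by length as well: 68 with a coding sequence of at most 462 bases had a median correlation of 0.29, and 134 longer ones −0.11. Mitochondrial ribosomal protein genes had a median of −0.01 (77 genes).

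Members differed in their spread over cells. The SD of log2(CPM + 1) over 43 cells was lowest for *Rpl6* (1.01), *Rps3* (1.03), *Rpl7* (1.07), *Rpl3* (1.09) and *Rpl13* (1.14), and highest for *Rpl5* (2.51), *Rps12l1* (2.45), *Rpl7l1* (2.32), *Rpl8* (2.32) and *Rps4l* (2.29). The median over the members was 1.61, and within their interquartile range of TPM it was 1.50 for members and 1.71 for other genes. Of the 5 most variable members, *Rpl5* and *Rps12l1* share reads with near-identical copies, and *Rpl7l1* and *Rps4l* were detected in only 28 and 22 cells.

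Comparing diets asks whether the RNA of NAcLat→VTA cells differed after chronic HFD. The summed ribosomal protein level was slightly higher in HFD cells on average, with means of 1.41% of counts in HFD cells and 1.22% in REG cells, a log2 ratio of 0.20 (0.19 to 0.21 from counting error alone). The difference was small beside the spread between cells, with SDs of 0.826 and 0.458 percentage points, and the medians, 1.16% and 1.20%, ran the other way. Leaving out 1 cell at a time gave log2 ratios from 0.11 (without HFD 4) to 0.27 (without HFD 8). Without the 9 cells that carried microglial markers the ratio was 0.11.

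The batches differed in this ratio. In batch 1 the HFD cells had 0.629%, 0.707%, 1.03%, 1.31% and 3.08%, and the 13 REG cells lay between 0.424% and 1.97% with a median of 1.45%. Of the 5 HFD cells, 4 were below the REG median and HFD 4 was above every REG cell, so the log2 ratio of 0.07 in this batch rested on that cell and was −0.48 without it. HFD 4 also had 6 of 7 microglial markers above 15 CPM and 49.2% of its counts on *Lars2*; their part in the result was not tested. In batch 2 the 15 HFD cells ran from 0.0938% to 3.07% with a median of 1.29%, and the 10 REG cells from 0.654% to 1.95% with a median of 1.15%, a log2 ratio of 0.33 with overlapping ranges. In this batch the summed share had a Spearman correlation of −0.41 with the total count and −0.45 with genes detected. In batch 1 these were −0.13 and −0.0093. The batch 2 medians were 1426800 counts and 9584 genes for HFD cells, and 1884340 and 12036 for REG cells. A part of depth in the ratio was not tested.

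By gene, most members had a somewhat higher mean in HFD cells. The median log2 ratio over the 82 members was 0.19, with 53 above 0 and 29 below, while over all 10802 genes it was −0.13. Other scalings of the totals moved both medians: with TMM-scaled totals they were 0.45 and 0.0036, and with size factors 0.41 and 0.02, so that relative to all genes the members stood higher by 0.32 on CPM and by 0.44 and 0.39 on these scales. The 34 small subunit and 48 large subunit members had like medians, 0.18 and 0.20. Beyond a log2 ratio of 1, members were few: 3 of 82 were above 1, where the background is 9.04% of all genes, and 0 of 82 below −1, where it is 14.3%. Most genes of that background have a far lower level than the members, and counts at like level were not made. Other genes of members' level had a median log2 ratio of −0.13 (208 genes).

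**Figure D3:**
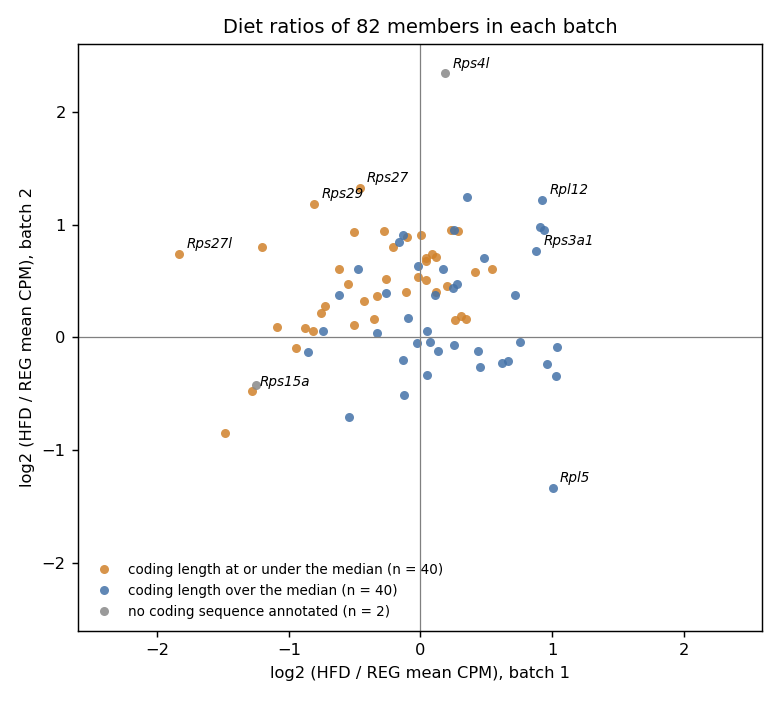
Log2 ratio of mean CPM, HFD to REG, in batch 1 (horizontal) and batch 2 (vertical) for the 82 members above the filter, coloured by coding length. Of the 82, 29 are above 0 in both batches and 9 below 0 in both, while the 22 short members in the upper left are below 0 in batch 1 and above 0 in batch 2.

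The sign of the ratio was the same in both batches for 38 of 82 members, or 46.3%, beside 49.2% of all genes. In batch 1 the median was 0.02, with 3 members above 1 (background 18.4%) and 6 below −1 (background 23.8%), and in batch 2 it was 0.39, with 5 above 1 (background 13.5%) and 1 below −1 (background 21.1%). Without HFD 4, the batch 1 median was −0.63 and 66 of 82 members were below 0. The share of all genes below 0 without that cell was not computed, so this count has no background beside it.

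Among members with the same sign in both batches, the 6 lowest ratios included those of *Rpl7l1* (−0.63), *Rpl18* (−0.58), *Rps12l1* (−0.47) and *Rps15a* (−0.44). The lowest, median and highest CPM of *Rpl18* were 0.946, 87.6 and 339 for REG and 0, 51.2 and 241 for HFD. *Rps12l1* changed sign when REG 15 was left out, with 0.17. For the other 3, ratios with 1 cell left out stayed below 0, but *Rpl7l1* moved to −1.57 without HFD 20 and −0.32 without REG 21, and *Rps15a* to −1.05 without HFD 7 and −0.22 without REG 1. In all 4 the cells of both diets overlapped.

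At the other end, *Rps4l* (chr6:148354656-148355598, plus strand, GRCm38), a transcribed processed pseudogene related to *Rps4x*, had the highest ratio, 1.49. Counts above 0 were found in 10 REG and 12 HFD cells, with medians of 0 and 0.981 CPM and highest values of 74.4 and 244 CPM. The single cell HFD 19 held 56.4% of the HFD sum, and without it the ratio was 0.37. It thus turned on 1 cell.

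*Rpl12* (chr2:32961559-32965345, plus strand) followed with 1.06, with 0.92 in batch 1 and 1.22 in batch 2. Its CPM ran over 0, 22.3 and 190 in REG cells and 0.870, 26.2 and 626 in HFD cells, so the medians were near each other and the mean was raised by a few HFD cells. Without HFD 15 the ratio was 0.51, and with the counts of its copies added it was 0.53.

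*Rps3a1* (0.78) and *Rps4x* (0.69) had ratios that were alike in both batches, 0.88 and 0.77, and 0.94 and 0.95, respectively. Both genes were named from members with the same sign in both batches, so the shared sign was set by that choice. Without HFD 4 the batch 1 median over members above the filter was −0.63. The batch 1 ratios of *Rps3a1* and *Rps4x* without that cell are not given here. *Rps3a1* (chr3:86137940-86142702, minus strand), a small subunit gene, had a lowest, median and highest CPM of 0, 129.97 and 439 for REG and of 11.98, 190.4 and 1102 for HFD, and the highest HFD cell lay above every REG cell. *Rps4x*, the X-linked gene of its small subunit protein, ran over 6.97, 118 and 464 CPM for REG and 3.59, 207 and 625 CPM for HFD. Leaving out single cells, the ratios of both genes over all cells stayed at or above 0.51, and the cells of both diets overlapped throughout.

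**Figure D4:**
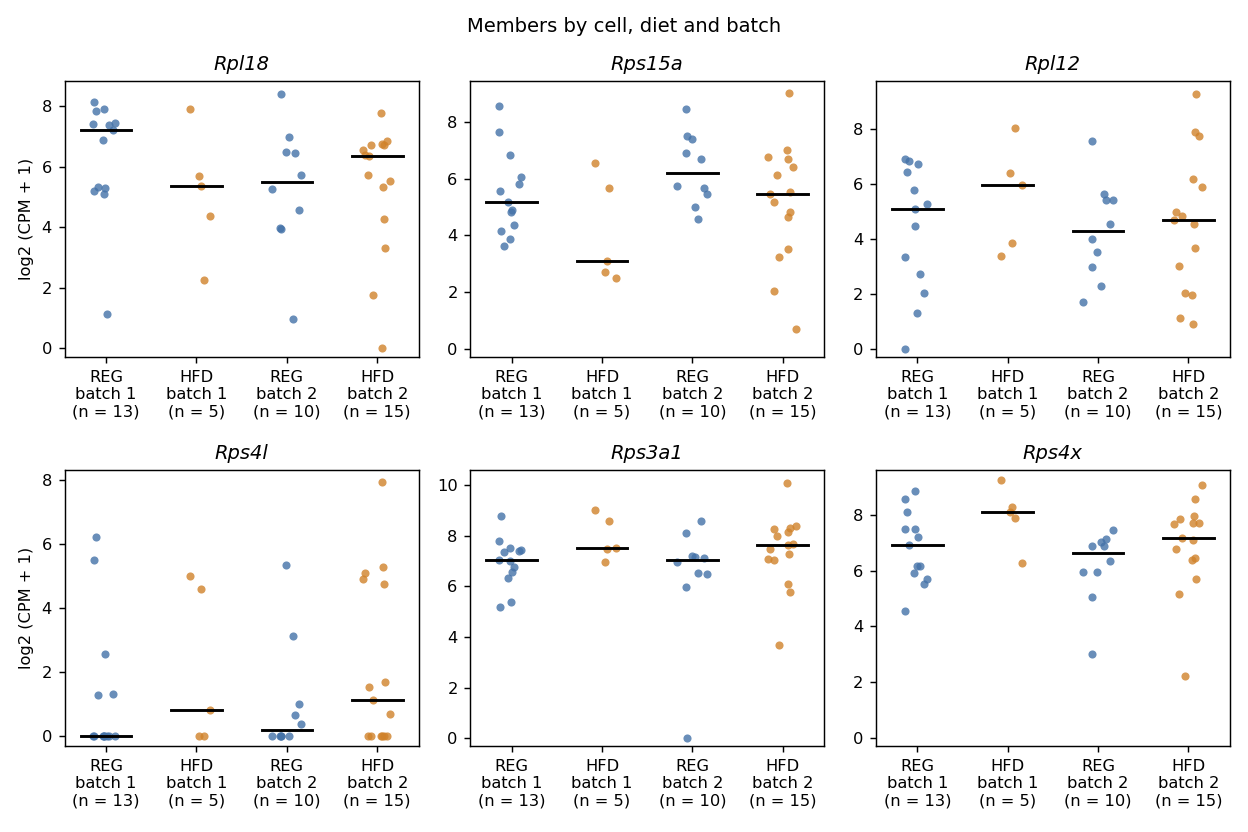
Log2(CPM + 1) of 6 members in each cell by diet and batch, with bars at the medians. *Rpl18* and *Rps15a* have lower means in HFD cells, *Rpl12*, *Rps4l*, *Rps3a1* and *Rps4x* higher means, and in all panels the cells of both diets overlap.

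Other members showed opposite signs. *Rps29*, a short zinc-binding small subunit gene, was the third member above 1, with 1.25, but it had −0.81 in batch 1 and 1.18 in batch 2. Its CPM ran over 1.40, 102 and 499 in REG cells and 3.59, 129 and 1549 in HFD cells, and without HFD 11, which held 29.4% of the HFD sum, it was 0.82. *Rps27* had 0.97, from −0.46 in batch 1 and 1.33 in batch 2. *Rpl5* had −0.46, from 1.004 in batch 1 and −1.33 in batch 2, and stood at −0.013 without REG 18.

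Among stalk genes, *Rplp1* had a log2 ratio of 0.42 (0.0022 and 0.90 in the batches), *Rplp0* of 0.28 (0.76 and −0.04) and *Rplp2* of −0.15 (−0.43 and 0.33). *Rps6* had −0.03 and *Rps27a* −0.13. *Fau* and *Rack1* had 0.0099 and 0.10, both below 0 in batch 1 and above 0 in batch 2. Of the most highly expressed members, *Rpl41* had 0.48 (0.04 and 0.68), *Rps14* 0.26 (0.12 and 0.71), *Rps15* −0.05 (−0.55 and 0.47) and *Rps18* −0.34 (−0.72 and 0.28).

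Within each batch the ratio varied with the length of the coding sequence. Members with at most 462 bases had a median log2 ratio of HFD to REG of −0.27 in batch 1, with 15 of 40 above 0, and of 0.51 in batch 2, with 37 of 40 above 0. For the 40 longer members the medians were 0.21 and 0.06, with 26 and 22 above 0. Without HFD 4, the batch 1 medians were −0.94 for short members, with 3 above 0, and −0.43 for longer ones, with 13 above 0. The sign for the longer members thus turned on that cell. Short members were not low in every HFD cell of batch 1. Relative to the median over the 43 cells, their median log2 level was −1.83 in HFD 3 and −2.30 in HFD 5. It was −0.67 in HFD 1, 0.16 in HFD 2 and 1.36 in HFD 4. Ratios by length without HFD 3 or HFD 5 are not given here. Across the 80 members with a coding sequence, length and ratio had a Spearman correlation of 0.47 for batch 1 (0.44 without HFD 4) and −0.40 for batch 2. For other genes of the members' level the medians for 68 short ones were −0.23 and 0.12, and for 134 long ones −0.05 and −0.17, smaller shifts of the same order. The division by length was chosen after these values were seen.

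**Figure D5:**
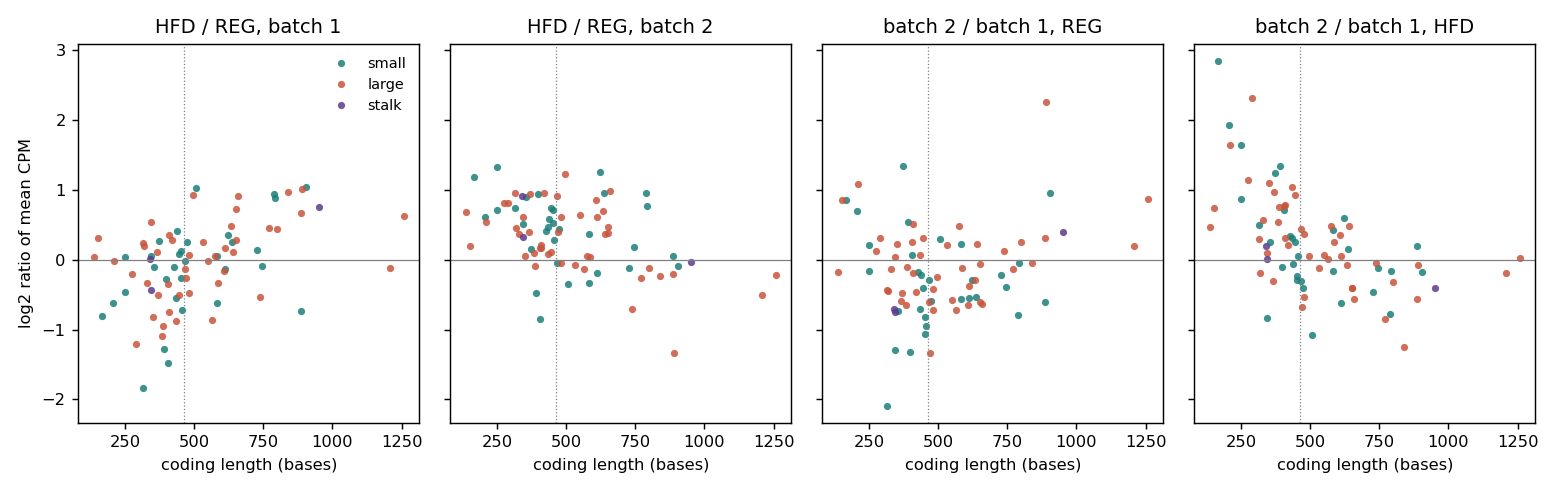
Log2 ratio of mean CPM against the length of the longest annotated coding sequence for 80 members, coloured by subunit, for HFD to REG in batch 1, HFD to REG in batch 2, batch 2 to batch 1 in REG cells and batch 2 to batch 1 in HFD cells. The dotted line marks the median length of 462 bases. Panels share cells: the 5 HFD cells of batch 1 enter both the first and the fourth. Points climb with length in the first panel (Spearman 0.47), descend in the second (−0.40) and in the fourth (−0.62), and have a correlation of 0.04 in the third.

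The balance of short and long members also varied from cell to cell in both batches. The log2 ratio of the mean TPM of short members to that of long members had a median of 0.28 over the 43 cells and ranged from −1.40 to 1.28. The 5 lowest cells were all of batch 1: REG 2 at −1.40, HFD 5 at −1.39, HFD 3 at −1.14, REG 7 at −0.94 and REG 8 at −0.50. Both diets were among them. In batch 2 the range was −0.09 to 1.28. Total counts of the 5 lowest cells, between 1306908 and 4678892, were all above the batch 1 median of 1211190. Over the 43 cells the balance had a Spearman correlation of −0.29 with the total count, and a part of depth in it was not tested. The balance computed from the 68 short and 134 long other genes went with that of the members, with a Spearman correlation of 0.46 over the 43 cells, 0.62 in batch 1 and 0.46 in batch 2. The balance also went with the summed level (0.65). These correlations share libraries and scaling and are descriptions.

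Batches were also compared within each diet. In REG cells the median log2 ratio of batch 2 to batch 1 was −0.20 over the members, with 3 above 1 (background 18.8%) and 5 below −1 (background 18.5%), and in HFD cells it was 0.17, with 12 above 1 (background 23.4%) and 2 below −1 (background 24.8%). All these shares of the members were below the background. That background covers genes of far lower level and wider spread. The median of the median TPM was 355 for members and 5.52 for other genes above the filter. The median SD of log2(CPM + 1) was 1.61 and 2.31. Counts past the limit among other genes of like level were not made. In HFD cells the ratio of the batches fell with coding length, with a Spearman correlation of −0.62, a median of 0.51 for short members and of −0.14 for longer ones, and the highest value in *Rps29* with 2.84. In REG cells the correlation was 0.04, with medians of −0.18 and −0.27. The 5 HFD cells of batch 1 enter both the ratio of the batches in HFD cells and the batch 1 ratio of HFD to REG. The trends of these ratios with length are therefore not independent observations.

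Other genes of ribosome production were more often below 0, as were genes at large, with 4627 above and 6175 below. Of 77 mitochondrial ribosomal protein genes, 28 were above 0 and 49 below, with a median of −0.28. Beyond a log2 ratio of 1, 6 were above 1 (background 9.04%) and 15 below −1 (background 14.3%). In batch 1 alone 31 were above 0 and 46 below (median −0.30), and in batch 2 there were 35 above and 42 below (median −0.12). The extremes over all cells were *Mrps22* (−2.87) and *Mrpl24* (1.66). Of 23 ribosome assembly genes, 4 were above 0 and 19 below (median −0.23), but in batch 1 alone 12 were above and 11 below (median 0.02), and in batch 2 there were 7 above and 16 below (median −0.36). They ran from *Fbl*, the methyltransferase of ribosomal RNA, at −1.93 in all cells, −1.93 in batch 1 and −2.02 in batch 2, to *Nip7* at 1.15. *Fbl* had means of 34.9 CPM (REG) and 9.12 CPM (HFD) and was detected in 31 cells. The 13 genes of RNA polymerase I transcription had a median of −0.31, from *Taf1c* (−6.49, detected in 11 cells) to *Taf1d* (0.38).

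The 16 translation genes whose mRNAs are known to carry the same start motif were nearer to the middle. For the 10 of them with a promoter sequence, 1 had the motif at the annotated start and 4 had it within 10 bases of that start. Of 16, 8 were above 0 and 8 below, with a median of 0.06, from *Eif3e*, a subunit of an initiation factor, at −1.31, to *Eef1d*, of the elongation factor complex, at 1.05. Of 15 genes of mTOR and of its control of these mRNAs, 8 were above 0 and 7 below, with a median of 0.15, from *Eif4ebp2* (−1.14), a repressor of cap-dependent initiation, to *Mlst8* (1.61), a subunit of the mTOR complexes. Both were detected in 22 of 43 cells, and differences between these lists and the members were not tested.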

How the data were processed

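RNA of 43 patched NAcLat→VTA cells was measured, 1 library each. The authors used kallisto to pseudo-align reads to GRCm38 transcripts, added these up per gene and left out poor cells. They deposited estimated counts without normalization, and TPM scaled within each cell. Each count was divided by the total of its cell and multiplied by 1000000 (CPM). Log2 ratios compare the mean CPM of HFD with that of REG cells, with no pseudocount, and a diet at 0 took 3 counts. Detection means any count above 0. Counting intervals cover counting error only, since reads carry no molecular identifiers, and binomial intervals (exact, 95%) treat promoters or cells as independent. As no mouse is named, diets were not tested over cells, and only outlying cells were looked for (Dixon's gap).

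Genes passed the filter with over 15 CPM in 5 or more cells and a mean over 4 CPM. Named members were the 8 highest and those at 0 by median TPM, the 6 highest and 6 lowest ratios with the same sign in both batches, the 5 largest and 5 smallest spreads, stalk genes, *Rps6*, *Rps27a* and paralogue pairs. Other named genes were the 10 closest to the summed members and the extremes of each list. *Rps29*, *Rps27* and *Rpl5* in the ratios, the pair of *Rps12l1*, copies and coding length were chosen after values were seen. Some genes that the rule names are not reported here. Members and lists were chosen with earlier results of these data known. Shared 31-base words, coordinates and coding lengths came from GENCODE transcripts of the same build, and promoters from RefSeq (300 bases, GRCm38.p6).

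Counts were rounded for edgeR, DESeq2 and thinning to 150000 counts. Simulated counts for HFD against REG over 10802 genes, with 50 genes each at a log2 ratio of −2, −1, 1 and 2, gave medians of −1.89, −1.18, 0.943 and 1.99. The changed genes were drawn from the more abundant ones, with the same spread set for all genes and no batch difference. The simulation therefore does not cover batches or members of few counts. The work used Python 3.11.15, R 4.3.3, edgeR 4.0.16 and DESeq2 1.42.0. Alternatives comprised other scalings and summaries, single batches, thinning, added pseudogene rows and omitted cells.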

Additional observations from a re-analysis of the deposited data

Results flagged for a closer look

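Among the sets of 4 to 10 cells of 1 diet and batch, HFD batch 1 and REG batch 2, the summed ribosomal protein level of HFD 4 stood far from the other 4 HFD cells of batch 1. It was 3.08% of counts and 11.7% of TPM, with gaps to the next cell of 0.721 and 0.764 of the whole range against a limit of 0.71 for 5 cells. HFD 4 had 84 members detected and a total count of 2693211, and 80 of the 82 members above the filter exceeded their own median over the 43 cells in it. Chance alone flags about 1 in 20 such sets, and sets of more than 10 cells were not examined in this way.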

How the results depend on the processing

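The summed level was higher in HFD cells by a log2 ratio of 0.20, the median over members by 0.19, with 3 members above 1 and 0 below −1. In the same order, the values were 0.16, 0.17, 2 and 1 with TPM, 0.42, 0.45, 6 and 0 with TMM-scaled totals, 0.41, 0.41, 6 and 0 with DESeq2 size factors, 0.24, 0.25, 3 and 0 on totals without *Lars2* and *Gm19220*, −0.053, 0.11, 0 and 1 with medians over cells (81 members), 0.021, 0.022, 0 and 1 as a difference of mean log2(CPM + 1), 0.26, 0.29, 5 and 1 from summed counts over summed totals, and 0.40, 0.41, 3 and 0 as edgeR coefficients with batch as a term. They were 0.072, 0.023, 3 and 6 in batch 1, 0.33, 0.39, 5 and 1 in batch 2, and 0.20, 0.21, 2 and 1 as the mean of both. With pseudogene rows added they were 0.22, 0.17, 3 and 0, with near-identical copies added, an alternative chosen after seeing the data, 0.21, 0.17, 2 and 0, after thinning 0.20, 0.19, 3 and 0, and without the 9 cells with microglial markers 0.11, 0.13, 4 and 4. In batch 1 without HFD 4, also chosen after seeing the data, they were −0.48, −0.63, 2 and 29. The shares of all genes past these limits in that setting were not computed. With no filter, 5 members were above 1 and 2 below −1. Leaving out 1 cell at a time, the ranges were 0.11 to 0.27, 0.084 to 0.26, 2 to 7 and 0 to 2, with the lowest sum and median without HFD 4, 2 members below −1 without HFD 4 or without HFD 7, the highest sum and median without HFD 8 and the 7 members above 1 without REG 15. The causes of these shifts were not tested.

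The median share of counts, 1.20%, was 4.21% of TPM, 1.73% on totals without *Lars2* and *Gm19220*, 1.34% in batch 1, 1.16% in batch 2, 1.20% in REG and 1.16% in HFD cells, 1.18% after thinning, 1.27% with pseudogene rows and 1.28% with copies added, and 1.31% as a mean. The 58 members detected in every cell became 52 at a limit of 1 CPM, 9 at 15 CPM and 29 after thinning, and between 59 and 67 in the other settings. The share of promoters with the start motif, 21.9%, was 62.5% within 10 bases of the start and 51.6% for a C followed by at least 7 pyrimidines within 20 bases, beside 2.68%, 34.9% and 16.9% of all genes and 0%, 45.6% and 20.6% of mitochondrial ribosomal protein genes. No paired analysis was possible because no label ties a cell to a mouse, replicate numbers only name cells, and no result comes from a comparison tested over cells. Depth limits members of few counts, and shared sequence limits the level of single members.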
